A study of Homo sapiens with 28 samples.

Results

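ID1, ID2, ID3, ID4, SMAD6, SMAD7, SMAD9 and HOPX were followed over the 7 groups of an RNA sequencing experiment in LNCaP cells, as 8 of the 25369 genes counted. They were taken by name, and ID1 and HOPX were picked because both stood lower with 2 siRNAs against PERK, so their values in comparisons with those siRNAs are a description without a test. LNCaP is a cell line from a prostate cancer metastasis that expresses the androgen receptor, and it was the only line used. All libraries came from siRNA-transfected cells, sampled in 4 independent experiments, with each group represented by 4 libraries. Control siRNA was combined with DMSO (DMSO siCtrl), with tunicamycin at 2.5 µg/mL (TM siCtrl), or with that tunicamycin dose plus 100 nM of the PERK inhibitor GSK2606414 (TM PERKi siCtrl). The other 4 groups received the same tunicamycin dose after an siRNA against EIF2AK3, the gene for PERK (TM siPERK-1 and TM siPERK-3), or against ATF4 (TM siATF4-2 and TM siATF4-3). Treatment lasted 18 h and began 2 days after transfection. No group had an siRNA against PERK or ATF4 without tunicamycin, so every effect of these siRNAs is an effect within tunicamycin-treated cells.

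ID proteins are helix-loop-helix proteins without a DNA-binding basic region: they pair with E proteins and other basic helix-loop-helix factors and keep them off DNA. Bone morphogenetic proteins (BMPs) act through receptors that phosphorylate SMAD1, SMAD5 and SMAD9, and the ID genes, SMAD6 and SMAD7 are among the best known targets of that signal. SMAD6 and SMAD7 are the inhibitory SMADs that feed back on the receptors, whereas SMAD9, also called SMAD8, is a receptor-regulated SMAD and not an inhibitory one. HOPX is a small homeodomain protein that does not bind DNA and works through other factors such as SRF. Tunicamycin blocks N-linked glycosylation and so causes stress in the endoplasmic reticulum, where PERK is a sensor kinase whose action on eIF2 alpha increases translation of ATF4.

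The libraries held between 10794637 and 17253801 counts. EIF2AK3 fell with both PERK siRNAs, from 89.2 ± 6.51 CPM (counts scaled to library size, SD, n = 4) in TM siCtrl to 24.6 ± 3.996 and 21.5 ± 2.14, and ATF4 fell from 1511 ± 37.4 to 237 ± 82.4 with siATF4-2 and 114 ± 19.0 with siATF4-3, as the labels state. EIF2AK3 shares exon bases with LOC101928371, so reads of the 2 may be mixed. All 10 prostate luminal markers passed the filter on low counts, with a summed level of 3400 to 7898 CPM. Basal epithelial markers summed to at most 27.5 CPM, endothelial markers to 19.3 and leukocyte markers to 8.42. Fibroblast and mesenchymal markers summed to 34.9 to 39.8 CPM in DMSO siCtrl and 55.3 to 154.6 CPM in the tunicamycin-treated groups, with 4 of 9 genes passing the filter. Several defining markers of the other types were at or near 0 over all 28 libraries together, with 0 counts of the fibroblast gene COL1A2 and 1 of DCN, 0 of the basal gene TP63 and 6 of KRT5, 4 of the endothelial gene CDH5 and 30 of the leukocyte gene PTPRC. Other genes of these lists were counted in every library: ACTA2 at 4.49 to 97.0 CPM, COL1A1 at 13.9 to 40.3, VIM at 7.35 to 36.0, DST at 10.6 to 22.2, VWF at 8.74 to 18.3 and CD68 at 3.40 to 7.03 CPM. The luminal sum was also lower under tunicamycin, at 4205 to 4470 CPM in TM siCtrl against 6831 to 7898 CPM in DMSO siCtrl. KLK3 alone ran from 45.0 to 2842 CPM over all libraries and STEAP2 from 620 to 885, so the sum does not show that each marker fell. The part of the 2 shifts in summed markers in the results below was not tested. LNCaP was the only line used, and in bulk RNA a change in every cell and a change in some of the cells cannot be told apart.

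Promoter sequence is shown for genes whose levels moved in different directions, so that the windows can be compared beside the values. The sequences cover the 250 bases before an annotated start in RefSeq (GRCh38.p14), 5′ to 3′ on the strand of the gene, and capitals mark matches to the motifs searched, on either strand. The windows are chr20:31605039-31605288 (plus strand) for ID1, chr2:8681806-8682055 (plus) for ID2, chr1:23559502-23559751 (minus) for ID3, chr15:66701986-66702235 (plus) for SMAD6, and chr4:56681297-56681546 and chr4:56656518-56656767 (both minus) for the upstream and downstream starts of HOPX.
ID1: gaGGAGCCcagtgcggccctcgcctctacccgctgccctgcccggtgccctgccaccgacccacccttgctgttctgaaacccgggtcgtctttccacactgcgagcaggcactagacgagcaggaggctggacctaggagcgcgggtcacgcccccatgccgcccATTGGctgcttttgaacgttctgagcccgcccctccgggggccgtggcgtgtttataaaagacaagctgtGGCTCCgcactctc
ID2: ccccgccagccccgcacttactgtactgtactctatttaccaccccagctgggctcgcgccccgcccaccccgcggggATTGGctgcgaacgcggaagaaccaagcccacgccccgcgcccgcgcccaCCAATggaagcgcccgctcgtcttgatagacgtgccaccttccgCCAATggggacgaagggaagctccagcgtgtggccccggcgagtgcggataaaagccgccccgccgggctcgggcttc
ID3: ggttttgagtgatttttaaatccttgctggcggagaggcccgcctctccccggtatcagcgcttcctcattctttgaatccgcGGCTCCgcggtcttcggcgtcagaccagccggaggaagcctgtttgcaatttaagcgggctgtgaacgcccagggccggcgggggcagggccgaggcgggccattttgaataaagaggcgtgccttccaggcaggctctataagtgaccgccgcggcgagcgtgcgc
SMAD6: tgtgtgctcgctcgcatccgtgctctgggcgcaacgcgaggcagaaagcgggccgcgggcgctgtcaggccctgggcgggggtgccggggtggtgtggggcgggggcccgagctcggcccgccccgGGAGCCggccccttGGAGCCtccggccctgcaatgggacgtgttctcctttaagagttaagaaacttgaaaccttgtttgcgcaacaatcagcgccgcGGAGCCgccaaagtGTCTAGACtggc
HOPX upstream start: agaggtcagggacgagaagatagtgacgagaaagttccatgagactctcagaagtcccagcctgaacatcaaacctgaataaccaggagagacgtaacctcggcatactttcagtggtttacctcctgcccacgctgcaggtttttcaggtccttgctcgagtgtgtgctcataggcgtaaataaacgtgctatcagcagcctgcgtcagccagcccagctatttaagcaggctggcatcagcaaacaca
HOPX downstream start: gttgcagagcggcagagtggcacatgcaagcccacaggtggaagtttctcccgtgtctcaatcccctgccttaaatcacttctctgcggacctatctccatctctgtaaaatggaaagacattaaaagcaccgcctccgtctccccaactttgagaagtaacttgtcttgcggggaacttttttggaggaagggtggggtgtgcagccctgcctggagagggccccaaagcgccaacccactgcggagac

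All 8 genes matched the promoter table, with 11 windows between them, and the motifs were searched in 35116 windows of the same length. GGAGCC, a BMP-type SMAD motif, was in 6 of the 11 windows against 30.6% of all windows. Base composition was not matched between them. G and C made up 66.0% of the ID1 window, 62.0% of ID3, 78.8% of ID4, 68.0% of SMAD6 and 78.4% of SMAD9. The share was 48.4% in the SMAD7 window that held the motif, and the median of all windows was 58.0%. ID1 held it 9 to 14 bases and 243 to 248 bases before the start, ID3 held it at 162 to 167 bases, and SMAD6 held 3 copies. The palindromic SMAD motif GTCTAGAC was in the SMAD6 window alone among the 11, at 5 to 12 bases before the start, and in 0.182% of all windows. CCAAT, the NF-Y motif, was in 3 of 11 windows against 32.0% of all, with 3 copies in ID2 and 1 each in ID1 and ID4. CACGTG, an E box, was in the SMAD9 window, against 6.34% of all windows. None of the 11 windows held GGCGCC, another BMP-type SMAD motif (16.4% of all), TGACGTCA, the cyclic AMP response element (1.65%), or the C/EBP-ATF letters TGATGCAA (0.772%) and TGATGAAA (0.931%). Neither HOPX window held any of the 8 motifs. A match describes letters and not binding, and an absent match says only that those letters are not in the window.

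Tunicamycin raised all 4 ID genes, SMAD9 and HOPX, lowered SMAD6, and left SMAD7 without a call. Of the 8 genes, 6 rose and 1 fell, in a comparison where 69.0% of the 14314 genes tested were called, 34.3% higher and 34.7% lower (edgeR's quasi-likelihood test, Benjamini-Hochberg adjusted p under 0.05). The median log2 change of the 8 was 1.32, beside 0.01 for all genes tested. ID1 and HOPX were chosen on a contrast that uses the same TM siCtrl libraries, which are also shared by all comparisons of inhibitor or siRNA described below.

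**Figure D1:**
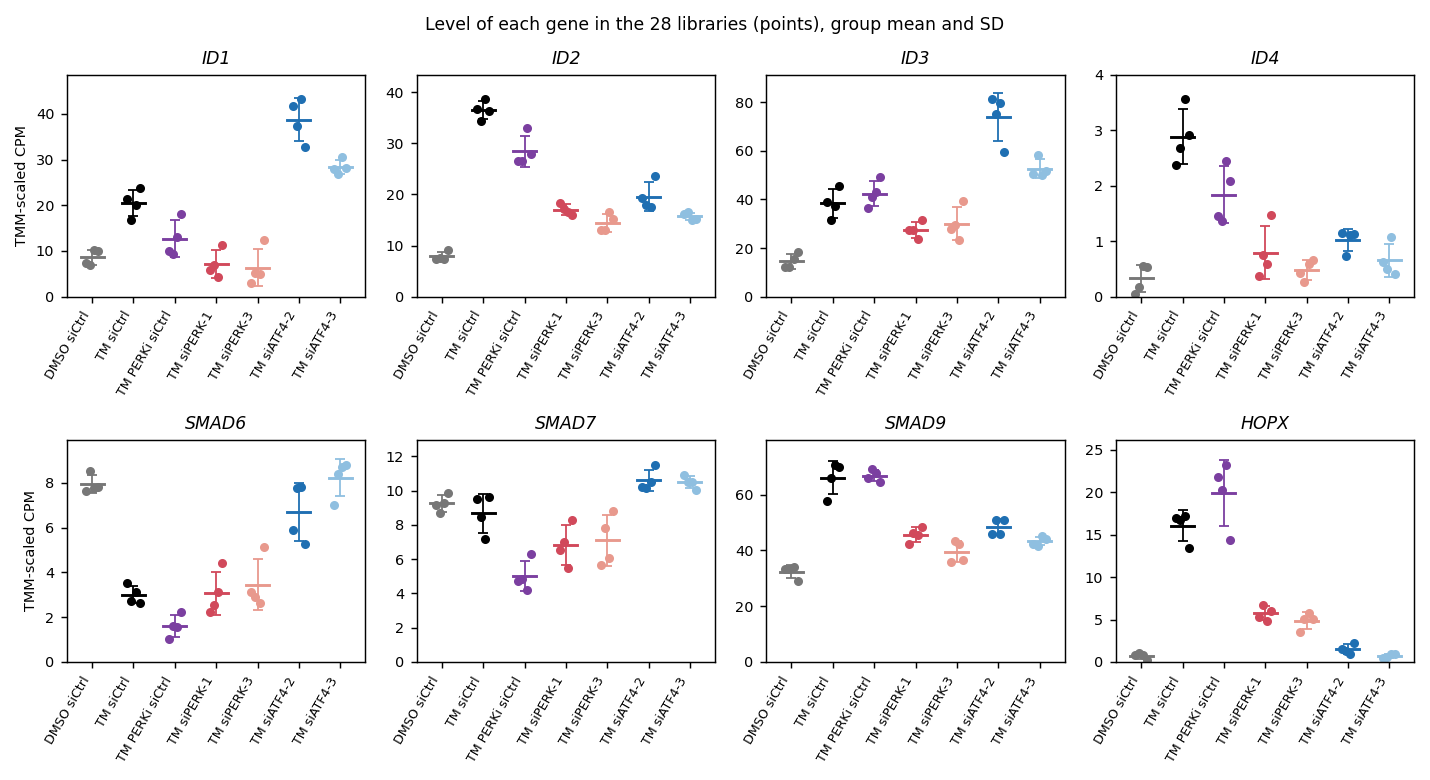
Level of each gene in CPM (linear axis from 0) in each of the 28 libraries, as points, with the group mean as a horizontal line and the SD as an error bar (n = 4). HOPX stands at 13.4 to 17.2 CPM in TM siCtrl and at most 1.01 CPM in DMSO siCtrl, and SMAD6 shows the opposite order, with 7.63 to 8.53 CPM in DMSO siCtrl.

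ID1 (hg19 chr20:30193086-30194317, plus strand) was at 7.41, 6.92, 10.1 and 10.0 CPM in the 4 DMSO siCtrl libraries and at 21.4, 16.9, 20.1 and 23.8 CPM in TM siCtrl. Every tunicamycin library was above every DMSO library, and the log2 change was 1.25 ± 0.26 (SE, adjusted p = 0.000196). ID2 (chr2:8822113-8824583, plus) stood at 7.41, 7.64, 7.28 and 9.14 CPM with DMSO and at 36.6, 34.4, 38.6 and 36.3 CPM with tunicamycin. That was the tightest separation among the ID genes, with a log2 change of 2.21 ± 0.09 (adjusted p = 1.65e-23). ID3 (chr1:23884421-23886285, minus) had 12.0, 12.0, 15.5 and 18.6 CPM with DMSO and 39.0, 31.4, 37.2 and 45.7 CPM with tunicamycin, again without overlap. Its log2 change was 1.40 ± 0.16 (adjusted p = 5.89e-08). ID4 (chr6:19837601-19842431, plus) was close to the detection limit with DMSO, at 0.055, 0.18, 0.55 and 0.53 CPM from 23 counts in all, and at 2.38, 2.67, 3.56 and 2.92 CPM with tunicamycin. The log2 change of ID4 was 3.09 ± 0.33 (adjusted p = 7.35e-11), and the small DMSO count limits the precision of its size.

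Among the SMAD genes the directions differed. SMAD6 (chr15:66994674-67074337, plus), the inhibitory SMAD that acts mainly on BMP receptors, stood at 7.63, 8.53, 7.77 and 7.82 CPM with DMSO and at 3.51, 2.73, 3.12 and 2.66 CPM with tunicamycin. The groups did not overlap and the gene fell by 1.40 ± 0.17 on the log2 scale (adjusted p = 1.36e-09). SMAD7, which inhibits both BMP and TGF-beta receptors, had 8.71 to 9.88 CPM with DMSO and 7.19 to 9.63 CPM with tunicamycin. These ranges overlapped, and the log2 difference of -0.09 ± 0.11 was not called (adjusted p = 0.503). SMAD9 (chr13:37418968-37494409, minus) had 33.2, 33.3, 34.2 and 29.01 CPM with DMSO and 57.6, 65.9, 70.8 and 69.9 CPM with tunicamycin. SMAD9 therefore rose by a log2 change of 1.03 ± 0.07 (adjusted p = 1.71e-17). HOPX (chr4:57514154-57547872, minus) moved most of the 8, from 0.77, 1.01, 0.80 and 0.26 CPM with DMSO to 17.0, 16.7, 17.2 and 13.4 CPM with tunicamycin. The DMSO values rest on 5 to 17 counts a library, and the rise was 22.7-fold (log2 4.51 ± 0.22, adjusted p = 2.29e-19).

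The ATF4 siRNAs split the set, including the genes that tunicamycin had raised. HOPX, ID2, ID4 and SMAD9 fell with both siRNAs, ID3 and SMAD6 rose with both, and ID1 and SMAD7 rose with siATF4-2 while their values with siATF4-3 were not called. Counted per siRNA, 4 of 8 rose and 4 fell with siATF4-2, where 55.6% of all genes tested were called (28.4% higher, 27.2% lower), and 2 rose and 4 fell with siATF4-3, where 61.9% were called (31.2% higher, 30.7% lower). The median log2 change of the 8 was -0.08 and -0.17, beside -0.00055 and -0.0015 for all genes tested. Both medians include ID1 and HOPX, chosen for low values against these same TM siCtrl libraries.

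**Figure D2:**
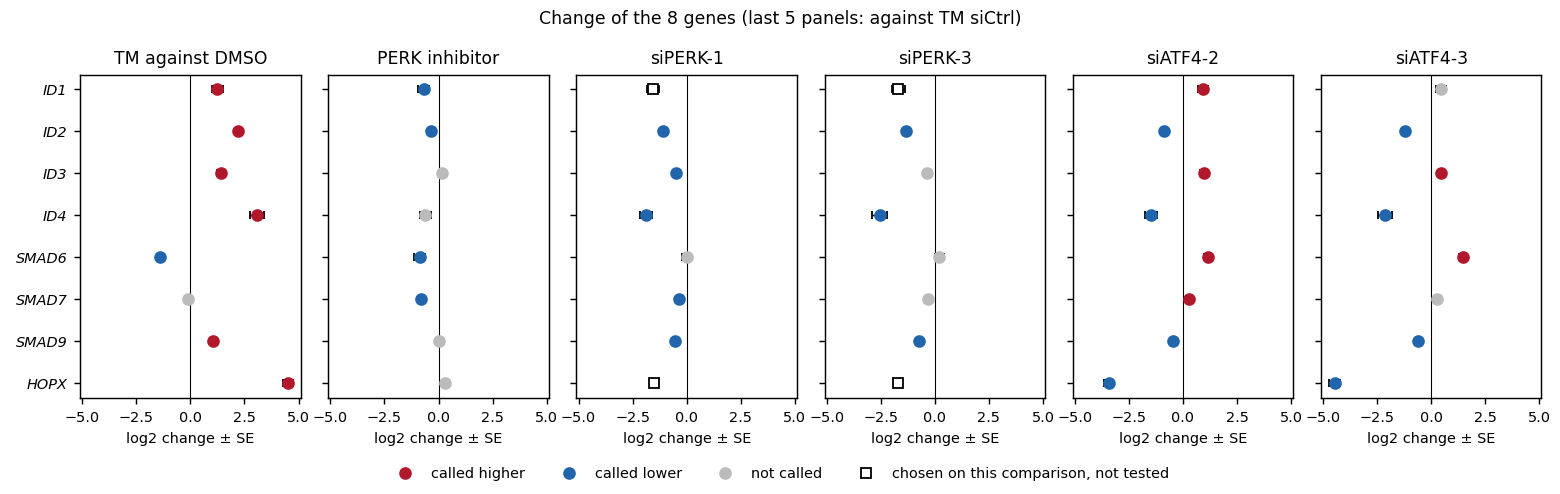
The log2 change of each gene (points, SE as bars) for tunicamycin against DMSO and for the inhibitor and each siRNA against TM siCtrl. The colour gives the call at an adjusted p under 0.05, and open squares mark ID1 and HOPX where they were chosen on the comparison. ID1, ID3, SMAD6 and SMAD7 lie right of 0 with both ATF4 siRNAs, and ID2, ID4, SMAD9 and HOPX lie left of 0.

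HOPX stood at 1.56, 1.30, 0.89 and 2.24 CPM with siATF4-2 and at 0.45, 0.57, 0.90 and 0.97 CPM with siATF4-3. These levels rest on 12 to 28 counts a library with siATF4-2 and 5 to 12 with siATF4-3, which limits the precision of the changes. All 8 libraries were below every TM siCtrl library, and both siRNA groups overlapped the DMSO range. The log2 change was -3.43 ± 0.20 with siATF4-2 (adjusted p = 6.79e-16) and -4.46 ± 0.24 with siATF4-3 (adjusted p = 1.45e-17). ID2 was at 19.3, 17.9, 17.5 and 23.6 CPM with siATF4-2 and at 16.1, 16.5, 15.1 and 15.2 CPM with siATF4-3. These levels were below TM siCtrl and above DMSO siCtrl without overlap on either side, and ID2 fell by 0.90 ± 0.08 with siATF4-2 and 1.21 ± 0.09 with siATF4-3 on the log2 scale (adjusted p = 7.4e-12 and 2.38e-15). ID4 had 0.72 to 1.15 CPM with siATF4-2 and 0.40 to 1.08 CPM with siATF4-3, and the log2 changes stood at -1.48 ± 0.28 and -2.15 ± 0.32 (adjusted p = 2.31e-05 and 1.98e-07). SMAD9 had 45.8 to 51.0 and 41.7 to 45.0 CPM, and fell by 0.45 ± 0.06 and 0.61 ± 0.07 on the log2 scale (adjusted p = 1.59e-07 and 1.42e-10).

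ID1, the gene picked for being low with the PERK siRNAs, had its highest levels of the experiment with the ATF4 siRNAs. It stood at 41.8, 37.4, 43.2 and 32.7 CPM with siATF4-2 and at 27.8, 26.8, 30.5 and 28.1 CPM with siATF4-3, all above the highest TM siCtrl library. The log2 change was 0.92 ± 0.23 with siATF4-2 (adjusted p = 0.00158). With siATF4-3 it was 0.46 ± 0.24 and not called (adjusted p = 0.0941), although limma-voom and a fit of only the compared groups called it, and the adjusted p ran from 1.84e-05 to 0.217 over the alternatives. ID3 was at 81.2, 75.3, 79.8 and 59.4 CPM with siATF4-2 and at 50.6, 58.4, 49.9 and 51.5 CPM with siATF4-3, without overlap with TM siCtrl. It rose by 0.95 ± 0.14 and 0.46 ± 0.15 on the log2 scale (adjusted p = 5.65e-06 and 0.00919). Thus ID1 and ID3 lay above TM siCtrl in all 8 libraries with an ATF4 siRNA and ID2 and ID4 lay below it.

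SMAD6, which tunicamycin had lowered, was at 5.89, 7.75, 7.83 and 5.29 CPM with siATF4-2 and at 7.03, 8.39, 8.70 and 8.82 CPM with siATF4-3. Both groups were above TM siCtrl without overlap and overlapped DMSO siCtrl, and SMAD6 rose by 1.16 ± 0.18 with siATF4-2 and 1.45 ± 0.17 with siATF4-3 on the log2 scale (adjusted p = 5.76e-07 and 2.08e-09). SMAD7 had 10.1 to 11.5 CPM with siATF4-2 and 10.0 to 10.9 CPM with siATF4-3, all above the TM siCtrl range. The differences of 0.28 ± 0.12 and 0.27 ± 0.12 on the log2 scale (adjusted p = 0.0402 and 0.0502) lay on either side of the threshold. The call with siATF4-2 was lost with upper-quartile factors (0.24) and without TM siCtrl replicate 2 or 3 or siATF4-2 replicate 1, 3 or 4 (0.21 to 0.30), with an adjusted p of 0.0141 to 0.161 over the alternatives. With siATF4-3 the difference was called without TM siCtrl replicate 1 (0.31) or 4 (0.30) and in 5 other settings, with an adjusted p of 0.0211 to 0.189 over the alternatives.

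The ATF4 siRNAs differed from each other in ATF4 itself, 237 against 114 CPM, and in 2 of the 8 genes, where 14.7% of all genes tested were called (6.20% higher, 8.53% lower). ID2 was lower with siATF4-3 by 0.31 ± 0.09 on the log2 scale (adjusted p = 0.0199) and ID3 by 0.49 ± 0.14 (adjusted p = 0.0226), each without overlap of the 2 groups. ID2 lost the call without siATF4-2 replicate 4 (-0.21) or siATF4-3 replicate 3 or 4 (-0.29 and -0.30), with an adjusted p of 0.00969 to 0.152 over the alternatives. ID3 lost it without siATF4-2 replicate 1 or 3 or siATF4-3 replicate 1, 3 or 4 (-0.48 to -0.44, adjusted p 0.00137 to 0.0644 over the alternatives). HOPX was lower with siATF4-3 by 1.03 ± 0.38 without a call (adjusted p = 0.061), on 5 to 12 against 12 to 28 counts a library. The difference was called by DESeq2 (-1.04), in a fit of only the compared groups (-1.02), without siATF4-2 replicate 3 (-1.22) and in 1 other setting, and the adjusted p ran from 0.0122 to 0.235 over the alternatives. ID1 and SMAD9 were also lower with siATF4-3 without overlap, by 0.46 ± 0.23 and 0.16 ± 0.07, and not called (adjusted p = 0.199 and 0.106), although a fit of only the compared groups called ID1 (-0.445).

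With the PERK siRNAs no gene of the set rose. Among the 6 genes not chosen on these comparisons, 5 fell with siPERK-1, where 26.4% of all genes tested were called (13.1% higher, 13.3% lower), and 3 fell with siPERK-3, where 26.8% were called (13.1% higher, 13.7% lower). ID2, ID4 and SMAD9 fell with both. The median log2 change of the 8 was -0.82 and -1.04, but this includes ID1 and HOPX, chosen for their fall here. Those medians are a description and are not comparable with the 0.0034 and 0.0018 of all genes tested.

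ID1 had 5.78, 6.90, 4.30 and 11.4 CPM with siPERK-1 and 2.96, 5.11, 4.97 and 12.3 CPM with siPERK-3, all below TM siCtrl. Replicate 4 was the highest of each group, and both groups overlapped DMSO siCtrl. The log2 differences from TM siCtrl were -1.55 ± 0.28 and -1.68 ± 0.29, and the second of these was -2.24 without siPERK-3 replicate 4. HOPX had 5.29, 6.76, 4.88 and 5.95 CPM with siPERK-1 and 3.55, 5.11, 5.80 and 5.07 CPM with siPERK-3. These values lay between TM siCtrl and the ATF4 siRNA groups and overlapped neither, with log2 differences from TM siCtrl of -1.49 ± 0.15 and -1.72 ± 0.16. No threshold was stated for the choice of ID1 and HOPX.

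ID2 was at 18.4, 17.1, 16.5 and 15.9 CPM with siPERK-1 and at 13.03, 13.03, 16.5 and 15.3 CPM with siPERK-3. Both groups lay between TM siCtrl and DMSO siCtrl without overlap, and ID2 fell by 1.098 ± 0.08 and 1.33 ± 0.09 on the log2 scale (adjusted p = 6.27e-13 and 7.99e-15). ID4 had 0.37 to 1.47 CPM with siPERK-1 and 0.26 to 0.65 CPM with siPERK-3, and fell by 1.89 ± 0.29 and 2.55 ± 0.34 on the log2 scale (adjusted p = 4.24e-06 and 2.05e-07). SMAD9 had 42.2 to 48.4 and 36.0 to 43.3 CPM and fell by 0.53 ± 0.06 and 0.74 ± 0.07 on the log2 scale (adjusted p = 3.15e-08 and 2.32e-11).

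ID3 and SMAD7 fell with siPERK-1 and were not called with siPERK-3, and SMAD6 was called with neither. ID3 had 27.4, 27.3, 23.7 and 31.7 CPM with siPERK-1 and 27.9, 29.6, 23.1 and 39.3 CPM with siPERK-3, and each group overlapped TM siCtrl. It fell by 0.48 ± 0.15 with siPERK-1 (adjusted p = 0.0245). The log2 difference with siPERK-3 was -0.35 ± 0.16 and not called (adjusted p = 0.102), but it was called without siPERK-3 replicate 4 (-0.51), and the adjusted p ran from 0.0196 to 0.291 over the alternatives. The siPERK-1 call was lost without TM siCtrl replicate 1 or 4 or siPERK-1 replicate 1 or 3 (-0.48 to -0.38, adjusted p 0.00516 to 0.0894 over the alternatives). SMAD7 had 5.47 to 8.27 CPM with siPERK-1 and 5.67 to 8.82 CPM with siPERK-3, overlapping TM siCtrl. It fell by 0.36 ± 0.12 with siPERK-1 (adjusted p = 0.0276), a call lost without the same 4 libraries (-0.34 to -0.27, adjusted p 0.00836 to 0.133 over the alternatives). With siPERK-3 the difference of -0.30 ± 0.13 was not called (adjusted p = 0.0794). It was called without TM siCtrl replicate 3 (-0.37) or siPERK-3 replicate 4 (-0.42) and in 1 other setting, with an adjusted p of 0.0194 to 0.288 over the alternatives. SMAD6 was at 2.22, 2.53, 3.13 and 4.40 CPM with siPERK-1 and at 3.13, 2.90, 2.65 and 5.15 CPM with siPERK-3, around the TM siCtrl values, and its log2 differences of 0.01 ± 0.20 and 0.20 ± 0.20 were not called (adjusted p = 0.989 and 0.502).

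Between the PERK siRNAs themselves none of the 6 genes tested was called, where 4.73% of all genes tested were (2.49% higher, 2.24% lower). By edgeR 2 of the 6, ID2 and SMAD9, had an unadjusted p under 0.05, and DESeq2 and limma-voom also called 0. The log2 difference nearest to a call was that of SMAD9, -0.21 ± 0.07 for siPERK-3 minus siPERK-1 (adjusted p = 0.075). SMAD9 was called without siPERK-3 replicate 2 (-0.25), with upper-quartile factors (-0.22) and in 1 other setting, with an adjusted p of 0.0233 to 0.275 over the alternatives. ID1 and HOPX differed by -0.13 ± 0.34 and -0.23 ± 0.19 on the log2 scale, with overlapping ranges.

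With the PERK inhibitor SMAD6, SMAD7, ID2 and ID1 fell, no gene of the set rose, and 4 had no call, in a comparison where 35.7% of all genes tested were called (18.2% higher, 17.5% lower). The median log2 change of the 8 was -0.48, beside -0.005 for all genes tested. It includes ID1 and HOPX, which were chosen for low values against these same TM siCtrl libraries, so the call of ID1 and this median are not independent of that choice. SMAD6 stood at 1.01, 1.62, 1.56 and 2.24 CPM, all below the lowest TM siCtrl library, and so farther below DMSO siCtrl than with tunicamycin alone (log2 -0.88 ± 0.23, adjusted p = 0.00275). SMAD7 stood at 4.75, 4.84, 4.22 and 6.28 CPM, its lowest group of the 7, without overlap with TM siCtrl (log2 -0.80 ± 0.13, adjusted p = 7.27e-06). ID2 had 26.5, 26.6, 32.9 and 27.9 CPM, just below the TM siCtrl range (log2 -0.35 ± 0.08, adjusted p = 0.000644).

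ID1 had 9.96, 9.35, 13.1 and 18.2 CPM with the inhibitor, and the highest of these lay within the TM siCtrl range. It fell by 0.68 ± 0.26 on the log2 scale (adjusted p = 0.0441). This call was lost with DESeq2 (-0.68), without a filter on low counts (-0.69), and without TM siCtrl replicate 1, 3 or 4 or inhibitor replicate 1, 2 or 3 (-0.70 to -0.56), with an adjusted p of 0.0141 to 0.132 over the alternatives. ID3 had 36.5, 40.8, 43.1 and 49.2 CPM, overlapping TM siCtrl, and its log2 difference of 0.15 ± 0.15 was not called (adjusted p = 0.47). ID4 had 1.46, 1.36, 2.45 and 2.09 CPM, with a log2 difference of -0.60 ± 0.25 and no call (adjusted p = 0.0565). ID4 was called without TM siCtrl replicate 1 (-0.69) or inhibitor replicate 3 (-0.79), in a fit of only the compared groups (-0.605) and in 1 other setting, with an adjusted p of 0.0115 to 0.171 over the alternatives. SMAD9 had 64.4 to 69.2 CPM and a log2 difference of 0.02 ± 0.06 (adjusted p = 0.855).

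HOPX stood at 21.8, 20.3, 23.3 and 14.4 CPM with the inhibitor. In 3 of the 4 libraries it was above every TM siCtrl library, and replicate 4 lay within their range. The log2 difference of 0.31 ± 0.13 was not called (adjusted p = 0.0685). It was called without inhibitor replicate 4 (0.44) and in 1 other setting, and the adjusted p ran from 0.00511 to 0.263 over the alternatives. HOPX was lower than TM siCtrl with both ATF4 siRNAs, and with both PERK siRNAs, the comparisons it was chosen on. In no inhibitor library was HOPX below the lowest TM siCtrl library.

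Set directly against the mean of both PERK siRNAs, the inhibitor gave other levels for all 6 genes tested, where 51.9% of all genes tested were called (25.8% higher, 26.1% lower). ID2, ID3, ID4 and SMAD9 were higher with the inhibitor, by 0.87 ± 0.08, 0.57 ± 0.13, 1.61 ± 0.29 and 0.66 ± 0.06 on the log2 scale (adjusted p = 1.94e-12, 0.001, 1.36e-05 and 9.99e-13). SMAD6 and SMAD7 were lower with it, with log2 differences of -0.98 ± 0.21 and -0.47 ± 0.12 (adjusted p = 0.000136 and 0.00157). ID1 and HOPX stood higher with the inhibitor by 0.94 ± 0.26 and 1.91 ± 0.13, as a description, with overlapping ranges for ID1 and separate ranges for HOPX. EIF2AK3 mRNA itself was at 125 ± 4.25 CPM with the inhibitor and at 24.6 and 21.5 CPM with the siRNAs.

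Against the PERK siRNAs, the ATF4 siRNAs gave higher levels for 5 of the 6 genes tested, where 63.9% of all genes tested were called (31.6% higher, 32.3% lower). SMAD6, ID3 and SMAD7 were higher by 1.20 ± 0.13, 1.12 ± 0.11 and 0.60 ± 0.09 on the log2 scale (adjusted p = 9.11e-11, 3.35e-09 and 1.72e-07), each without overlap of the groups. ID2 was higher by only 0.16 ± 0.07 (adjusted p = 0.0352) and SMAD9 by 0.11 ± 0.05 (adjusted p = 0.0462), with overlapping ranges. ID2 lost the call with upper-quartile factors (0.12) and without siPERK-1 replicate 3 or 4, siPERK-3 replicate 1 or 2, siATF4-2 replicate 4, or siATF4-3 replicate 1 or 2 (0.11 to 0.16). SMAD9 lost it with upper-quartile factors (0.07), DESeq2 (0.11) or no filter (0.11), and without siPERK-1 replicate 1, 2 or 3, siPERK-3 replicate 1 or 4, siATF4-2 replicate 2 or 4, or siATF4-3 replicate 1, 3 or 4 (0.09 to 0.11). The adjusted p ran from 0.0137 to 0.135 for ID2 and from 0.0198 to 0.2 for SMAD9 over the alternatives. ID4 differed by 0.40 ± 0.30 without a call (adjusted p = 0.244). ID1 and HOPX lay on opposite sides here, with ID1 higher by 2.31 ± 0.20 and HOPX lower by 2.35 ± 0.19 with the ATF4 siRNAs, as a description, and neither pair of groups overlapped.

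Per exon length, ID3, ID2 and ID1 made up nearly all ID transcript, and ID4 was under 1% in each group mean. The 4 genes summed to 24.6 ± 4.34 RPKM (CPM per kilobase of exon, SD, n = 4) in DMSO siCtrl and 75.1 ± 7.67 RPKM in TM siCtrl. The sum was 65.8 ± 8.44 RPKM with the inhibitor, 40.6 ± 4.91 and 40.1 ± 8.79 RPKM with siPERK-1 and siPERK-3, and 105.7 ± 10.0 and 77.1 ± 2.68 RPKM with siATF4-2 and siATF4-3. The sum with siATF4-3 thus lay within the TM siCtrl range of 64.9 to 83.5 RPKM, while its makeup differed. ID2 was 35.8 ± 3.05% of the sum in TM siCtrl and 13.8 ± 3.38% and 15.0 ± 0.51% with the ATF4 siRNAs. ID3 was 41.0 ± 2.28% in TM siCtrl, 54.7 ± 0.15% and 60.4 ± 5.19% with the PERK siRNAs, and 56.3 ± 2.82% and 54.99 ± 2.27% with the ATF4 siRNAs. ID1 was 22.2 ± 0.94% in TM siCtrl, 13.8 ± 4.23% and 12.1 ± 4.96% with the PERK siRNAs, and 29.7 ± 1.05% and 29.8 ± 2.30% with the ATF4 siRNAs.

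**Figure D3:**
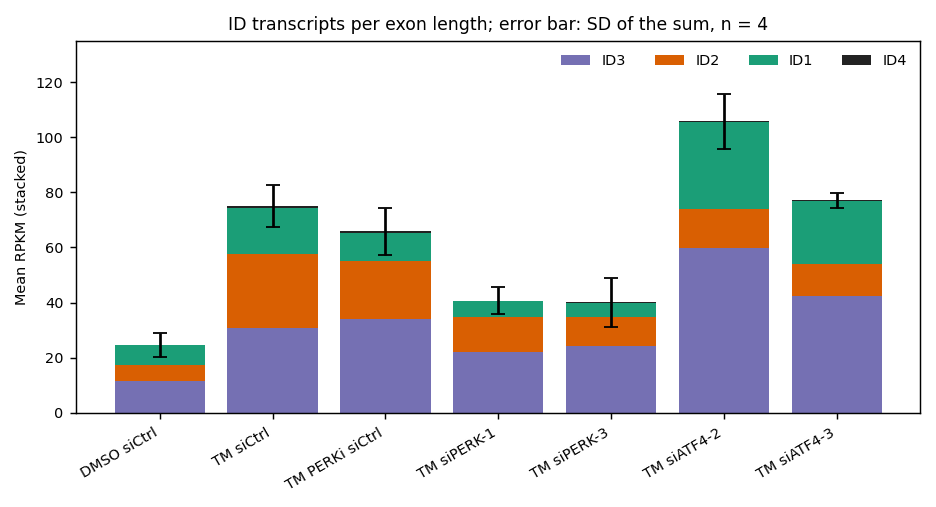
Stacked bars of the mean RPKM of ID3, ID2, ID1 and ID4 in each group, from 0, with the SD of their sum as the error bar (n = 4). The whole bar has about the same height in TM siCtrl (75.1 RPKM) and TM siATF4-3 (77.1 RPKM), but the ID2 block is smaller with siATF4-3.

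Over all 7 groups, the order of levels differed by gene. ID1 ran from siATF4-2 (38.8 ± 4.75 CPM) through siATF4-3 (28.3 ± 1.56) and TM siCtrl (20.5 ± 2.88) down to the inhibitor (12.7 ± 4.03), DMSO siCtrl (8.62 ± 1.69), siPERK-1 (7.08 ± 3.04) and siPERK-3 (6.34 ± 4.11). From TM siCtrl downward each neighbour in that order overlapped the next. HOPX ran from the inhibitor (19.9 ± 3.87 CPM) and TM siCtrl (16.1 ± 1.78) through siPERK-1 (5.72 ± 0.82) and siPERK-3 (4.88 ± 0.95) to siATF4-2 (1.497 ± 0.57), siATF4-3 (0.72 ± 0.25) and DMSO siCtrl (0.71 ± 0.32). Its neighbours were separate between TM siCtrl and siPERK-1 and between siPERK-3 and siATF4-2, and overlapped elsewhere. The nearest patterns within the set, measured as the root mean square difference of centred log2 CPM over the 7 groups, were ID2 with ID4 (0.31) and ID2 with SMAD9 (0.32). SMAD6 and SMAD7 were 0.50 apart, ID1 and ID3 0.62, and SMAD6 and HOPX 2.55, the farthest pair.

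By the same measure over 12033 genes, the gene nearest to ID1 was FAXDC2 at 0.42, followed by DNAH8, SNHG12, EIF2AK3 and SNHG17 at 0.58 to 0.60. FAXDC2 lay at 4.98 CPM in TM siCtrl, 2.58 and 2.56 CPM with the PERK siRNAs, and 10.7 and 8.55 CPM with the ATF4 siRNAs, but unlike ID1 it stood at 5.21 CPM in DMSO siCtrl. EIF2AK3 is the target of the PERK siRNAs, so its low values there come with the design. HOPX had closer neighbours: LAMP3 at 0.22, ERICH2 at 0.27, TGM1 at 0.32, TSLP at 0.33 and FLRT1 at 0.36. LAMP3, a lysosomal membrane protein, was at 0.45 CPM in DMSO siCtrl, 14.7 CPM in TM siCtrl, 5.99 and 3.63 CPM with the PERK siRNAs, and 0.95 and 0.62 CPM with the ATF4 siRNAs. TGM1, a transglutaminase of the epidermal cornified envelope, went from 2.42 to 39.2 CPM with tunicamycin and stood at 7.23 and 3.42 CPM with the ATF4 siRNAs. These likenesses are descriptions over 7 group means that share libraries.

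**Figure D4:**
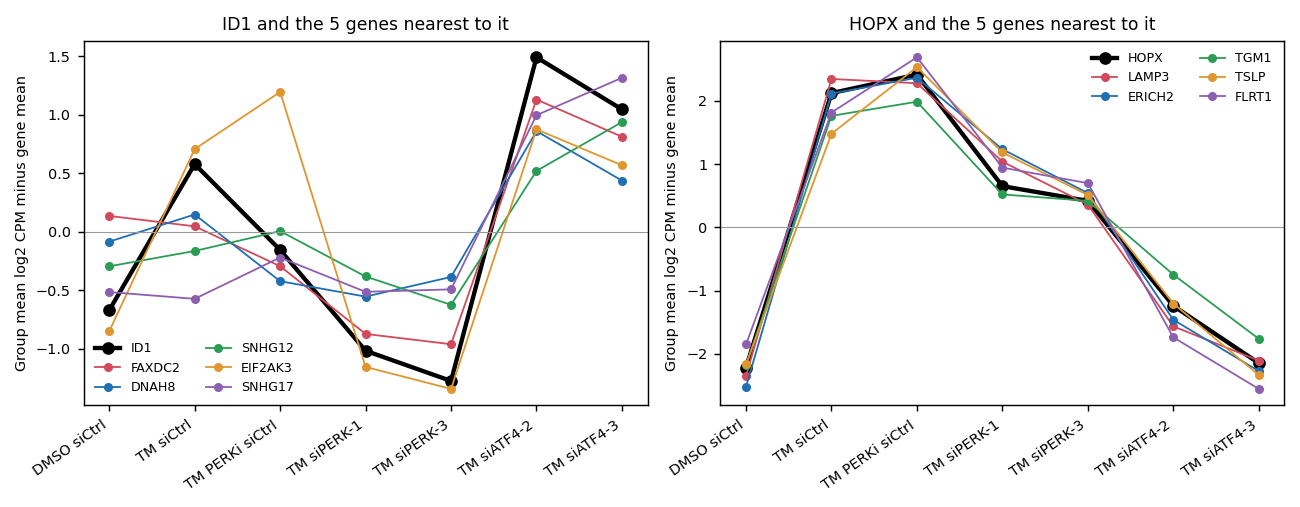
Group mean log2 CPM of ID1 (left) and HOPX (right) with the 5 genes nearest to each, every gene centred on its own mean over the 7 groups. The lines around HOPX keep close together, with distances of 0.22 to 0.36, while those around ID1 are 0.42 to 0.60 away and span the widest range in TM PERKi siCtrl, where EIF2AK3 is at 1.196 and ID1 at -0.155.

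Genes upstream in the BMP pathway were counted against all genes tested, of which 69.0% were called with tunicamycin, 34.3% higher and 34.7% lower. Of 31 BMP and TGF-beta family ligands, 13 passed the filter, and with tunicamycin 4 rose and 5 fell, a share close to that of all genes. GDF15, a secreted stress hormone of this family, rose from 772.3 to 2118 CPM (log2 1.46 ± 0.13, adjusted p = 8.88e-10), and GDF11 fell from 34.6 to 15.2 CPM (log2 -1.19 ± 0.08, adjusted p = 6.03e-16). With the ATF4 siRNAs GDF15 fell by 0.86 ± 0.13 and 1.42 ± 0.13 and GDF11 rose by 1.03 ± 0.09 and 1.45 ± 0.09 on the log2 scale. Of 18 receptors and co-receptors, 14 passed, and 5 rose and 6 fell with tunicamycin. The type I receptor ACVR1 and the type II receptor ACVR2A rose by 1.04 ± 0.07 and 1.01 ± 0.09, and both fell with the PERK siRNAs by 0.24 to 0.51. With siATF4-2 1 of the 14 rose and 8 fell, where 28.4% of all genes rose and 27.2% fell. With siATF4-3 3 rose and 8 fell, where 31.2% of all genes rose and 30.7% fell. ACVR1B fell with the 2 ATF4 siRNAs by 0.38 ± 0.06 and 0.42 ± 0.06, and ACVR2A by 0.32 ± 0.09 and 0.41 ± 0.09. BMPR1B, a BMP type I receptor, rose by 0.39 ± 0.07 and 0.56 ± 0.07. The list medians with tunicamycin were -0.05 for ligands and 0.03 for receptors, beside 0.01 for all genes.

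SMAD1, which carries the BMP signal together with SMAD5 and SMAD9, rose from 18.5 to 75.8 CPM with tunicamycin (log2 2.04 ± 0.09, adjusted p = 1.16e-18), the only 1 of the 5 receptor-regulated and common SMADs outside the set that was called (list median 0.04), where 69.0% of all genes were. It fell with siPERK-1 (-0.23 ± 0.08), siPERK-3 (-0.30 ± 0.09), siATF4-2 (-0.46 ± 0.09) and siATF4-3 (-1.22 ± 0.09). With the inhibitor all 5 rose, where 18.2% of all genes did, with a median log2 change of 0.30, among them SMAD3 (0.42 ± 0.10), SMAD1 (0.41 ± 0.08) and SMAD5 (0.30 ± 0.07). SMAD5 rose with both ATF4 siRNAs, by 0.60 ± 0.07 and 0.65 ± 0.07.

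Of 27 extracellular antagonists and intracellular brakes of the pathway, 19 passed the filter, and 4 rose and 7 fell with the inhibitor (list median -0.16), where 18.2% of all genes tested rose and 17.5% fell. PMEPA1, an inhibitor of TGF-beta signalling, fell by 1.13 ± 0.14 (adjusted p = 9.62e-07) and BAMBI, a pseudoreceptor, by 0.99 ± 0.21 (adjusted p = 0.000789), from 63.6 to 28.9 CPM and from 40.5 to 20.3 CPM. These 2 brakes fell with the inhibitor as SMAD6 and SMAD7 did. With the PERK siRNAs 2 of the 19 rose and 2 fell with siPERK-1 and 2 rose and 3 fell with siPERK-3, with list medians of 0.06 and -0.06, shares not far from the 26.4% and 26.8% of all genes called. The corepressor TGIF2 fell with tunicamycin (-1.23 ± 0.08) and rose with both PERK siRNAs (0.73 ± 0.09 and 0.70 ± 0.09).

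Among the factors that ID proteins pair with or compete with, 9 of 17 passed the filter, and with tunicamycin 2 rose and 7 fell, where 34.3% of all genes rose and 34.7% fell, with a median log2 change of -1.27. The repressor HES1 fell from 5.86 to 1.52 CPM (log2 -1.93 ± 0.18, adjusted p = 8.39e-13) and BHLHE40 from 86.0 to 31.6 CPM (-1.44 ± 0.16, adjusted p = 2.53e-08). With the ATF4 siRNAs 4 rose and 1 fell with each, close to the 55.6% and 61.9% of all genes called, with medians of 0.09 and 0.57. The E proteins TCF3 and TCF12 were among the 4: TCF3 rose from 44.7 CPM to 83.6 and 94.9 CPM (0.90 ± 0.06 and 1.09 ± 0.06), and TCF12 rose by 0.52 ± 0.07 and 0.57 ± 0.07. TCF3 rose with the PERK siRNAs as well, by 0.39 ± 0.06 and 0.36 ± 0.06.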

How the data were processed

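RNA from 28 LNCaP libraries (7 groups of 4) was sequenced from strand-specific libraries, per the labels' protocols. The authors deposited 6 tables of whole-number read counts per gene with each gene's exon length and hg19 exon positions. The submitters' processing notes name hg19, DESeq2 1.10.1, featureCounts 1.5.0-p1 and TopHat2 2.1.0, with no role given. For the strand setting and gene annotation, the sources used here give nothing. The TM siCtrl columns recur in 20 places without a differing value and were used once, and 1 nameless line, with 0 counts, was dropped. No columns of other samples were present (0 unused). Within-group libraries differed by more than sampling noise, so none was merged.

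Counts were fitted with edgeR 4.0.16 (R 4.3.3): TMM factors, filterByExpr by group (minimum count 10, minimum total 15, leaving 14314 genes), 1 mean per group over all 28 libraries, and a robust two-sided quasi-likelihood F-test per comparison, adjusted by Benjamini-Hochberg over all genes tested. Calls were made at adjusted p under 0.05. SE was taken as the size of the log2 change over the root of F. CPM are TMM-scaled, and RPKM divide them by the deposited exon length. Levels of 8 genes in libraries of at least 10794637 counts carry counting error of their own. It is largest for ID4, and for HOPX in DMSO siCtrl and with the ATF4 siRNAs. The p-values set differences against the spread of libraries within their groups, estimated over all 28 libraries of a single line. The fit had no term for the experiment.

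Counts were simulated for 14314 genes from 1 mean per gene over all libraries. In each simulation 100 genes were changed by 1 and 100 by 2 on the log2 scale. For tunicamycin against DMSO, 86% and 100% of these were recovered. For siPERK-3 against siPERK-1 these shares were 88% and 95%. In the real tunicamycin comparison 69.0% of all genes were called, so these shares describe a setting with far fewer changed genes.

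The members, gene lists, marker lists and tests were chosen with earlier results of these data known. Named genes were all 8 members, the siRNA targets, up to 3 called genes per list and comparison (largest change, no overlap of groups, mean log2 CPM of at least 1, and for siRNAs called with both), and the 5 genes nearest to ID1 and to HOPX. No protein sequences were used here. Alternatives were RLE or upper-quartile factors, DESeq2 1.42.0, limma-voom (limma 3.58.1), no filter, only the compared groups, the replicate number as a block, and leaving out each library. Figures were drawn with matplotlib 3.10.9 in Python 3.11.15.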

Additional observations from a re-analysis of the deposited data

Results flagged for a closer look

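In each of 56 groups of 4 values (8 genes in 7 groups) the gap between the lowest or highest library and its neighbour was compared with the range of the group, and a gap above Dixon's critical value was noted. Chance alone notes about 1 in 20 such groups, and 2 of the 56 were noted. ID4 was low in TM siATF4-2 replicate 2, at 0.725 CPM against 1.11 to 1.15 CPM in the other libraries, and at that level a library holds 10 counts. HOPX was low in TM siCtrl replicate 4, at 13.4 CPM against 16.7 to 17.2 CPM in the others.

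ID2 and ID3 were called between the 2 ATF4 siRNAs, with log2 differences for siATF4-3 minus siATF4-2 of -0.312 and -0.489. This was the test of the difference itself (edgeR's quasi-likelihood test, adjusted p = 0.0199 and 0.0226), where 14.7% of all genes tested were called. ID2 lost the call in 3 of the fits that left out a library, and ID3 in 5. ATF4 mRNA was 237 CPM with siATF4-2 and 114 CPM with siATF4-3, and the part of that difference in these results was not tested.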

How the results depend on the processing

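Of 70 tests of single genes, 46 kept their direction and their side of the threshold in every one of the 35 settings that was run for them. The 8 tests of tunicamycin against DMSO were among these, with 7 genes called in each fit that left out 1 library. Upper-quartile factors raised the genes called between the PERK siRNAs from 0 to 1 and lowered those between ATF4 and PERK siRNAs from 5 to 3, and a fit of only the compared groups raised those between the ATF4 siRNAs from 2 to 4, adding ID1 and HOPX. Left-out libraries gave 3 to 5 genes called for the inhibitor and for siPERK-1 and siPERK-3, 0 to 1 between the PERK siRNAs (392 to 627 of all genes, against 677), 0 to 2 between the ATF4 siRNAs and 3 to 5 between ATF4 and PERK siRNAs. Uncalled log2 differences that changed sign were SMAD6 with siPERK-1 (-0.038 by limma-voom, -0.207 to 0.145 with 1 library left out) and siPERK-3 (-0.057 to 0.312), SMAD9 with the inhibitor (-0.043 to 0.052), ID3 (-0.034 to 0.232), SMAD6 (-0.063 to 0.41) and SMAD7 (-0.062 to 0.159) between the PERK siRNAs, and SMAD7 between the ATF4 siRNAs (-0.037 to 0.026). The cause was not tested.

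The labels name 4 independent experiments without saying that a replicate number marks one, so the block was not used for the values above. Over 84 pairs with the same number the correlation of deviations ran from -0.005 to 0.302 (median 0.0865) and 30 were over 0.1. In 73 of the 84 it was higher than with any other number in that group, where numbers without meaning would give about 1 in 4. Libraries of the same number thus shared part of their variation, and the tests above take no account of it. With the replicate number as a block, 1 gene (SMAD9) was called between the PERK siRNAs in place of 0, and 1195 of all genes in place of 677. Under the block HOPX with the inhibitor (0.305, adjusted p = 0.0331) and between the ATF4 siRNAs (-1.031, adjusted p = 0.0488), ID4 with the inhibitor (-0.652) and SMAD7 with siPERK-3 (-0.298) and siATF4-3 (0.266) gained a call. The values most limited by depth are those of ID4, with at most 49 counts a library, and of HOPX where it was low. HOPX had 5 to 17 counts a library in DMSO siCtrl, 12 to 28 with siATF4-2 and 5 to 12 with siATF4-3. SMAD6 had 11 to 30 counts a library with the inhibitor.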

Other observations

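Of 11 HOPX partners and cofactors of SRF, 8 passed the filter on low counts, and with tunicamycin 1 rose and 3 fell, where 34.3% of all genes tested rose and 34.7% fell. HDAC2, a histone deacetylase that HOPX is known to recruit, fell from 264.2 to 142.1 CPM with tunicamycin (log2 -0.89 ± 0.05, edgeR adjusted p = 2.8e-19) and rose with the ATF4 siRNAs to 223 and 247.2 CPM (0.65 ± 0.05 and 0.80 ± 0.05). HDAC2 thus moved opposite to HOPX in these comparisons, which share the TM siCtrl libraries. SRF rose with both PERK siRNAs (0.49 ± 0.06 and 0.28 ± 0.06), with both ATF4 siRNAs (0.38 ± 0.06 and 0.43 ± 0.06) and with the inhibitor (0.38 ± 0.06). MKL2, a coactivator of SRF, rose with tunicamycin (0.56 ± 0.06) and fell with the PERK siRNAs (-0.53 ± 0.06 and -0.43 ± 0.06) and the ATF4 siRNAs (-0.45 ± 0.06 and -0.52 ± 0.06).

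Of 25 other BMP and TGF-beta target genes, 15 passed the filter, and with tunicamycin 7 rose and 5 fell, with a median log2 change of 0.37, beside the same 34.3% and 34.7% of all genes. CDKN2B, an inhibitor of the G1 cyclin-dependent kinases, rose from 1.06 to 10.2 CPM (3.26 ± 0.20, adjusted p = 7.82e-17) and fell with the ATF4 siRNAs to 3.89 and 2.34 CPM (-1.39 ± 0.17 and -2.10 ± 0.19). With the inhibitor 4 of the 15 rose and 3 fell, where 18.2% of all genes rose and 17.5% fell. CDKN2B rose (0.62 ± 0.14) and GATA2, a transcription factor, fell from 136.9 to 63.4 CPM (-1.11 ± 0.10). Of the 15, 4 rose and 4 fell with siATF4-2, where 28.4% of all genes rose and 27.2% fell. With siATF4-3, 6 rose and 4 fell, where 31.2% of all genes rose and 30.7% fell. JUNB rose with both ATF4 siRNAs (0.78 ± 0.09 and 0.70 ± 0.09) and COL1A1 fell with both (-0.92 ± 0.11 and -1.07 ± 0.12).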
